A study of Mus musculus with 2 samples.

Results

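The Bcl2 family decides whether a stressed cell opens the outer membrane of its mitochondria. Effector proteins such as Bak1 and Bok form pores in that membrane, and the release of cytochrome c through them starts the caspase cascade. Protective members (Bcl2, Bcl2l1, Bcl2l2 and Mcl1) hold the effectors back, and BH3-only members (Bid, Bik, Bad and Bcl2l11) carry death signals to other members of the family. These 10 genes were chosen by name, as family members that do not belong to the p53 targets Bax, Bbc3 and Pmaip1. They are 10 of the 20823 genes that the arrays name through a RefSeq accession, and 14 probes measure them.

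Baf53a is an actin-related subunit of the BAF chromatin remodelling complex, and Baf53b is its neuronal form. The comparison asks how Baf53a-deficient embryonic stem (ES) cells given a Baf53b vector differ from those given a Baf53a vector. Both cultures derive from 1 clone of E14 ES cells that carries a deletion in each Baf53a allele and a Tet-repressed, Cas9-resistant Baf53a transgene. They were transfected with a pCAGIP vector for Myc-tagged Baf53a or Baf53b and, 48 h later, grown in 1 μg/mL Tet for 6 days with LIF. One group was the Baf53a-expressing and the other the Baf53b-expressing Baf53a-deficient ES cells, with 1 RNA sample and 1 array each. Cells lost during those days are not represented, and the arrays analysed here hold no culture without either protein. With 1 array per group there was no test, no p-value and no replicate error.

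Both arrays shared a slide and a scan. They were 1-colour Agilent arrays, and each value is the processed signal, the brightness of a spot after background subtraction and detrending. All log2 values are scaled so that the 75th percentile of each array is 0, and each difference is Baf53b-expressing minus Baf53a-expressing. The probe of Actl6b, the gene of Baf53b, read 119 with Baf53b, at least 14.5-fold higher than with Baf53a, where it was not well above background. The single probe of Actl6a, the gene of Baf53a, read 3806 with Baf53a and 3600 with Baf53b, a difference of -0.04, so it does not show an exchange of Baf53a for Baf53b. Where it lies relative to the deletions and to the vector's coding insert was not analysed here, so the loss of Baf53a rests on the labels and the study's methods. All 7 ES cell markers examined (Pou5f1, Nanog, Sox2, Esrrb, Zfp42, Klf4 and Nr0b1) were well above background in both groups and differed by -0.15 to 0.07. The 5 primitive endoderm markers (Gata4, Gata6, Sox17, Sox7 and Dab2) differed by 0.08 to 0.40 with a median of 0.22 and Dab2 the highest, and the 3 measured of 4 trophoblast markers had a median of 0.18. The 2 measured of 3 mesoderm markers had a median of -0.17, and the 3 neuroectoderm markers one of 0.01. The mesoderm value rests on dim probes, T at 38.8 with Baf53a and 34.5 with Baf53b, and Mesp1 at 39.0 and 32.8. Dab2 was also read by 1 dim probe, at 108 with Baf53a and 138 with Baf53b. Over all measured probes the median difference was -0.0013 and the SD 0.206. The part of these other cell types in the values of the Bcl2 family was not tested. In RNA of whole cultures, fewer cells of a type and less RNA per cell cannot be told apart.

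RefSeq start windows (assembly GRCm38.p6, 250 bases before and 50 after an annotated start) were found for 9 of the 10 genes, 13 windows in all. The window of Bik was not used here. The hexamer GGGCGG, read on both strands and known as a core of the sites of Sp1-type factors, stood in 8 of the 13 windows and in 7 of the 9 genes. Of all 32851 windows in the table, 35.7% held it. No window of these genes held TATAAA on either strand (13.6% of all windows), the palindrome CACGTG (7.15%) or a p53 half-site (8.36%), which says only that these letters are absent there. The window of Bax held 1 p53 half-site, and those of Bbc3 held none. The pair CG occurred 1 to 44 times per window with a median of 22, against a median of 7 over all windows. The 150 bases before the start of 1 gene of each role are given here because they show the start with and without this hexamer, with GGGCGG or its reverse complement in capitals, 5′ to 3′ on the strand of the gene.
Bcl2 (protective, chr1:106714291-106714440, minus strand): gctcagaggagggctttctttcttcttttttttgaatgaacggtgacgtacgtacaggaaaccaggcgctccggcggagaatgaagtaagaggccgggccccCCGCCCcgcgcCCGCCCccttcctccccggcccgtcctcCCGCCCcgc
Bid (BH3-only, chr6:120916825-120916974, minus strand): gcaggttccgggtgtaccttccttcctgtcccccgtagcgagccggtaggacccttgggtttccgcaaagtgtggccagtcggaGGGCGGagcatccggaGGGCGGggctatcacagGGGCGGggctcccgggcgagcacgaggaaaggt
Bak1 (effector, chr17:27028628-27028777, minus strand): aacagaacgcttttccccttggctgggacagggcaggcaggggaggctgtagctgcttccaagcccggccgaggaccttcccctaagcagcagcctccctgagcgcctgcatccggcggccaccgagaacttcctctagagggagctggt
The stretches of Bcl2 and Bid hold 3 such hexamers each and that of Bak1 holds 0.

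All 10 Bcl2 family genes chosen here were detected in both cultures, beside 16608 of the 20823 named genes, and none of their probes differed by 2-fold. Of the 14 probes, 13 stood well above background on each array, and the second probe of Bcl2l2 on neither. Of all 39411 probes on the arrays, 29247 stood well above background on both. Of the 13, 0 were 2-fold or more higher with Baf53b and 0 were lower by that much. Among all 29247 probes measured on both arrays, 0.137% reached 2-fold upwards and 0.116% downwards, so a count of 0 among 13 is near the background. A smaller step of 0.2 on the log2 scale, set after the values were seen, was reached by 1 of the 13 probes, against 22.6% of all probes. The share of all probes past that step fell from 49.9% in the dimmest of 5 equal groups by brightness to 7.83% in the brightest, and the 13 probes lay in the 4 brighter groups with 3, 3, 3 and 4 probes.

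**Figure D1:**
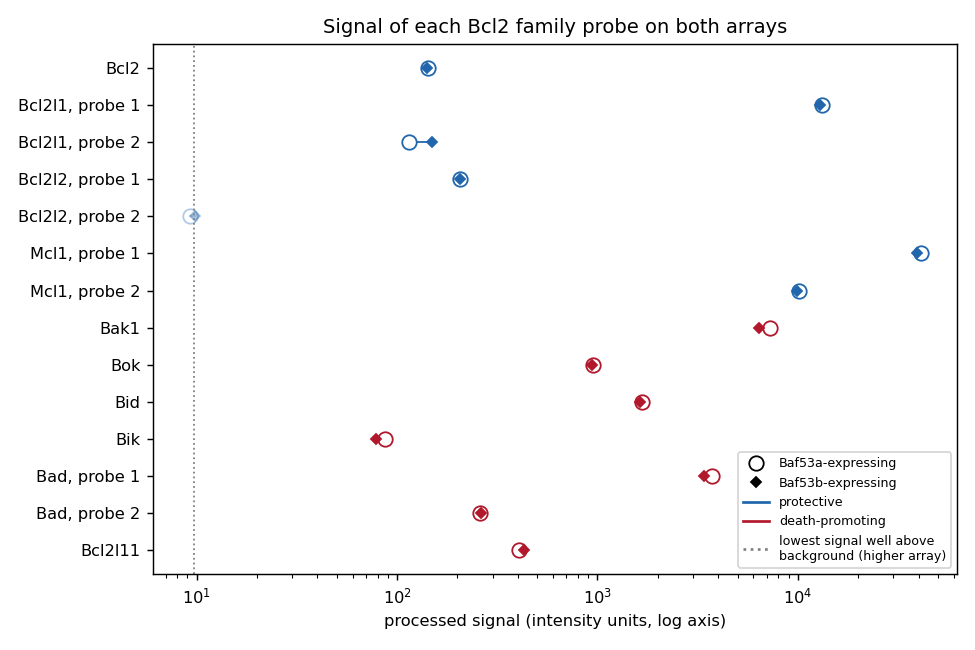
Processed signal (log axis) of each of the 14 probes on the array of Baf53a-expressing (open circles) and of Baf53b-expressing cells (diamonds), protective genes in blue and death-promoting genes in red. The 2 symbols of a probe nearly coincide for most probes and lie visibly apart for the second probe of Bcl2l1, and the faded second probe of Bcl2l2 sits at the lowest signal well above background (dotted line).

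Among the protective genes, Mcl1, a short-lived protein that binds Bak1 and BH3-only members, was represented by 2 bright probes. The first read 41109 with Baf53a and 39126 with Baf53b, and the second 10087 and 9905. After scaling, these were differences of -0.03 and 0.02, and the mean for the gene was -0.01. Both differences were under the spot SD of a difference in their brightness group, 0.0590. It combines the scatter within each array between the spots of probes printed many times. This scatter holds spot noise only, not the noise of culture or labelling.
Bcl2, the founding member of the family, read 143 with Baf53a and 141 with Baf53b, a scaled difference of 0.02. Bcl2l2, which encodes the protective Bcl-w, read 206 and 207 on its measured probe, a difference of 0.05. Its second probe read 9.24 and 9.77, near the lowest signals well above background of 8.45 and 9.75, and gives no level. For both genes the difference was under the spot SD of their brightness groups, 0.119 for Bcl2 and 0.0799 for Bcl2l2.
Bcl2l1, which encodes the protective Bcl-XL and, by another splice form, the death-promoting Bcl-XS, was the gene with the largest difference, and its 2 probes disagreed. The bright probe read 13244 with Baf53a and 12900 with Baf53b, a difference of 0.00. The dim probe read 114 and 150, a difference of 0.44 or 1.35-fold higher in Baf53b-expressing cells. Its difference exceeded the spot SD of its brightness group, 0.119, and lay 1.83 SDs above the median of the probes of that group, whose SD was 0.208. The mean over both probes was 0.22 and the brighter probe alone gave 0.00, so the value of the gene rests on the dim probe. Both probes carry the same RefSeq accession, and where on the transcript each lies was not analysed here. Over the 3521 genes with exactly 2 measured probes, the median gap between their probes was 0.0979, and 5.23% had a gap at least as large as the 0.43 of Bcl2l1. Among the 93 genes whose probes lay in the same pair of brightness groups, the median gap was 0.17 and 6 had a gap that large.

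Among the effectors, Bak1, which forms pores in the mitochondrial outer membrane, read 7275 with Baf53a and 6430 with Baf53b. This was a difference of -0.14, the lowest among the 13 probes. It was larger than the spot SD of its brightness group, 0.0590. The probes of that group had a median of -0.06 and an SD of 0.108, so that Bak1 lay at -0.679 SDs from that median. Bok, an effector that acts largely apart from the protective members, read 948 and 936, a difference of 0.02, within the spot SD of 0.0664.

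The BH3-only genes showed no common direction, with 2 higher and 2 lower. Bid, which caspase 8 cleaves to link death receptors to mitochondria, read 1677 with Baf53a and 1638 with Baf53b, a difference of 0.01. Bcl2l11, which encodes Bim, a binder of all the protective proteins, read 405 and 429. Its difference of 0.12 was the second highest among the genes and exceeded the spot SD of its group, 0.0799, but lay 0.687 SDs above the median of probes of like brightness. Bik, a BH3-only protein of the endoplasmic reticulum, read 87.0 and 78.1, a difference of -0.11, just under the spot SD of 0.119. Bad, which growth factor signalling holds inactive by phosphorylation, read 3720 and 3407 on its first probe and 258 and 264 on its second. These were differences of -0.08 and 0.07, of opposite sign, and the mean for the gene was -0.01. Of the 3521 genes with 2 measured probes, 1132 had a gap at least as wide as that of Bad.

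**Figure D2:**
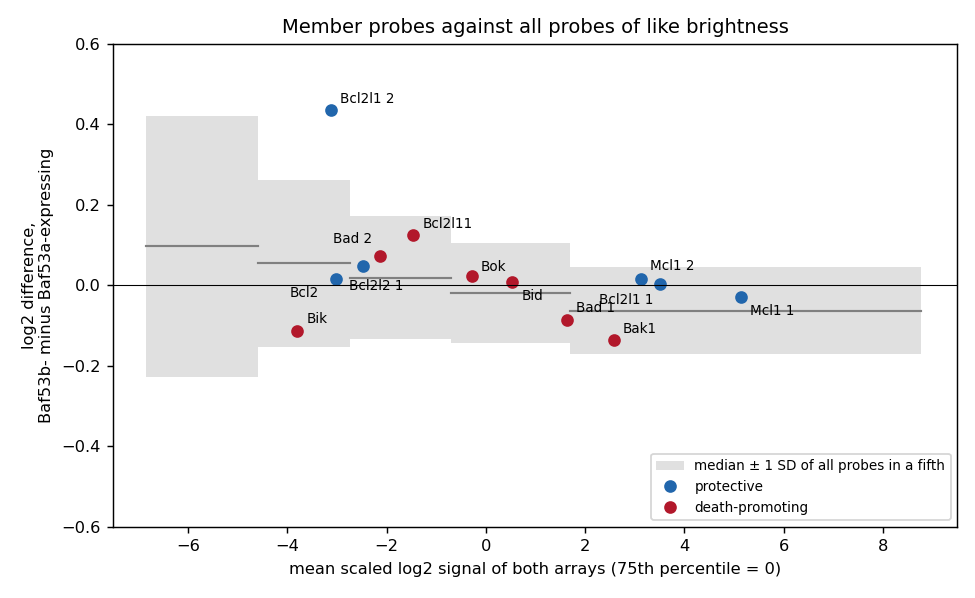
Log2 difference (Baf53b- minus Baf53a-expressing, vertical axis) against the mean scaled log2 signal of both arrays (horizontal axis) for the 13 measured probes, protective in blue and death-promoting in red, a number after a name giving the probe from bright to dim. The grey line and band give the median ± 1 SD of all probes in each of 5 brightness groups, and 12 of the 13 probes lie within the band, the second probe of Bcl2l1 being the exception.

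Over the 13 probes, 12 lay within 1 SD of the median of all probes in their brightness group and 13 within 2 SDs, against 74.0% and 95.5% of all measured probes. By the narrower measure of spot noise, 9 of the 13 differences were under 1 spot SD and 11 under 2, and those beyond 2 were the dim probe of Bcl2l1 and Bak1. These differences still held the median of their brightness group. Relative to that median, Bak1 stood at -0.07 beside its spot SD of 0.0590. The dim probe of Bcl2l1 stood at 0.38 beside 0.119. The error that Feature Extraction attaches to each signal gave an error of 0.20 to 0.21 for a difference on the log2 scale. Of the 13 differences, 12 lay under it, all but the dim probe of Bcl2l1. The shares of all measured probes under the spot SDs and under this error were not computed. The counts by these measures are therefore not read as particular to these genes.

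Death-promoting and protective genes were then set against each other. The 4 protective genes had a median difference of 0.03, with a range of -0.01 to 0.22, with 3 of them above 0 and 1 below. The 6 death-promoting genes had a median of 0.00, with a range of -0.14 to 0.12, with 3 above 0 and 3 below. Over all 16608 named genes measured the median was 0.00, with 8159 above 0 and 8449 below. The death-promoting median lay below the protective one by a difference of -0.0303, and by -0.0313 when the median of the brightness group was first taken from each probe. Without Bcl2l1 the difference between the medians was -0.0147. Both of these alternatives were chosen after the values were seen. The values of the 2 sides overlapped. Genes are not replicates of a condition, so no error is attached to these medians.

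**Figure D3:**
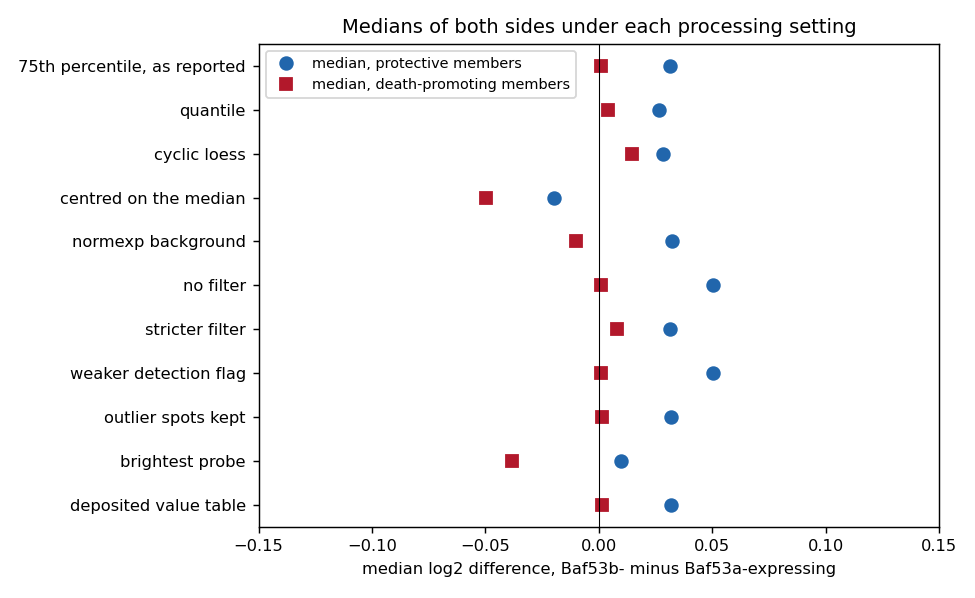
Median log2 difference (Baf53b- minus Baf53a-expressing, horizontal axis) of the 4 protective (circles) and the 6 death-promoting genes (squares) under each processing setting (rows). The protective median lies right of the death-promoting one in each setting, the death-promoting minus the protective median being -0.0490 to -0.0136, and with arrays centred on the median both lie below 0. All settings use the same 2 arrays, so a shared sign is not repeated evidence. The spot SD of the difference of a single probe, over all brightness, was 0.132.

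The p53-induced members of the family were examined for comparison, and Trp53 itself, the gene of p53, differed by -0.22, from a signal of 1831 to one of 1528. Its single probe lay at -1.62 SDs from the median of its brightness group, where the spot SD was 0.0664. In that group 9.44% of all probes differed by 0.2 or more. Bax, the third pore-forming effector, differed by -0.04, and the BH3-only genes Bbc3 (Puma) and Pmaip1 (Noxa) by -0.09 and -0.02. All 3 values were below 0, as were 8449 of the 16608 named genes. The 3 probes lay in the brightest of the 5 groups, whose median was -0.06. Relative to that median, Bax, Bbc3 and Pmaip1 stood at 0.02, -0.02 and 0.04. The median of the 3 genes, -0.04, turned to 0.02 with quantile normalization and with cyclic loess alike.

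Of 12 further relatives listed, 10 were on the array by accession and measured, and 9 of them were lower in Baf53b-expressing cells, with a median of -0.08, beside 8449 of the 16608 named genes lower and a median of 0.00. The median of the 10 was -0.13 to -0.02 over the settings run, and nothing particular to these relatives is read from it. None reached 2-fold. The difference of Bcl2l10, a relative known from oocytes, was the widest at -0.37, from signals of 18.0 and 13.5 that lie close to the background. Bnip3l and Bnip3, which act in the removal of mitochondria, differed by -0.09 and 0.05, and Bcl2l13 by -0.08. Bcl2l14 gave -0.43 and 0.26 from 2 dim probes. Bcl2a1d belongs to near-identical copies whose signals a probe may share, and its value of -0.10 is uncertain for that reason. Bcl2l14 and Bcl2a1d are named here after their values were seen.

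The 26 partners and regulators, which bind, phosphorylate or degrade family members, had a median difference of 0.00 with 13 higher and 13 lower. Among the brightest, the 14-3-3 genes Ywhae and Ywhaq, whose proteins hold phosphorylated Bad in the cytosol, differed by -0.12 and 0.00, and the mitochondrial channel gene Vdac1 by -0.10. Foxo3, a transcription factor known to activate Bcl2l11, differed by 0.27, and is named here after its value was seen. It was the only one of the 26 at 0.2 or more, beside 3244 of the 16608 named genes. Its single probe was dim, with signals of 95.1 and 112, and lay 1.04 SDs above the median of its brightness group. A link to the value of Bcl2l11 was not tested. The 11 genes of the proteins released from mitochondria, of the apoptosome and of its inhibitors had a median of 0.00, with 4 higher and 7 lower and all 11 within 0.2, beside 13364 of the 16608 named genes within 0.2, which is near the background. Cytochrome c (Cycs) differed by -0.05, the inhibitor Birc5 (Survivin) by 0.01 and Aifm1, a flavoprotein of the intermembrane space, by -0.08.

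**Figure D4:**
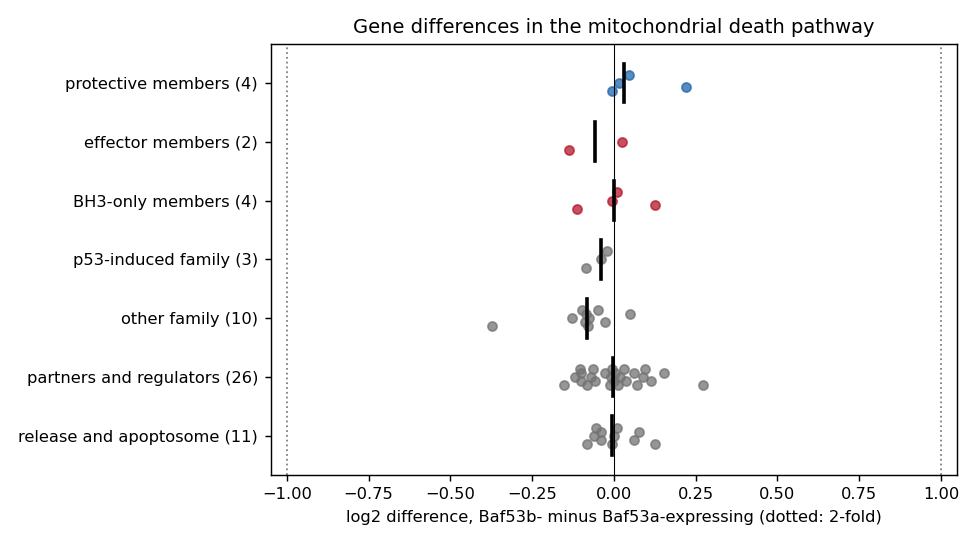
Log2 difference (Baf53b- minus Baf53a-expressing, horizontal axis) of each measured gene, as dots, in 7 groups of the mitochondrial death pathway (rows, with the number of genes), with the median as a black bar and 2-fold as dotted lines. No gene reaches 2-fold, and the widest values are those of Bcl2l10 at -0.37, Foxo3 at 0.27 and Bcl2l1 at 0.22.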

How the data were processed

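RNA of 1 culture per group was labelled with Cy3 and hybridised to Agilent mouse arrays designed on mm9. The authors deposited, for each spot, an intensity (processed signal) after background subtraction and detrending in Feature Extraction 11.0.1.1, with no scaling between arrays, and spot flags. They also deposited a table of 30488 probes as a ratio. For the 30479 probes compared, each ratio was the processed signal over 1 number per array, 1160 and 1126, near the 75th percentile. The medians of its columns were 0.257 and 0.262.

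Control spots and outlier spots were left out, the spots of each probe were combined as a mean log2 intensity, and each array was scaled to its 75th percentile (signals of 1161 and 1128). No spot was saturated. A probe counted as measured when at least 50% of its spots were flagged well above background on both arrays, as 75.2% and 76.4% of probes were on each array. The bound for Actl6b sets its signal against the higher of its own dim value and the lowest signal well above background. Genes were named through RefSeq accessions of assembly GRCm38.p6, used for names and start windows, and a gene's value is the mean over its measured probes. Spot noise came from 324 probes with at least 5 spots left on each array.

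The members, gene lists and settings were chosen with earlier results of these data known. Named were the 10 members, Actl6a, Actl6b, Trp53, Bax, Bbc3 and Pmaip1, and, among the further relatives, partners and downstream genes, those at least 0.3 apart or seen on 1 array only and up to 3 of the brightest per list. Cell type markers were outside this rule. Python 3.11.15, pandas 2.3.3, R 4.3.3 and limma 3.58.1 were used. The steps were tested on simulated data with changes wider than 2-fold. That test does not cover differences as small as those reported here.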

Additional observations from a re-analysis of the deposited data

How the results depend on the processing

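With 1 array per group no replicate could be left out. No paired analysis was possible because the groups share only 1 replicate number. Normexp (offset 50) was run on the median spot signal. In each of the 10 alternatives 0 member probes were 2-fold apart. The mean of Bcl2l1 moved by more than the spot SD of its dim probe's brightness group in 1 setting, to 0.0039 with the brightest probe only. The other members moved by less than the spot SD of their dimmest measured probe's brightness group, though small ones changed sign. The list medians ran from -0.09 to 0.02 for the p53-induced members, -0.13 to -0.02 for the other relatives, -0.05 to 0.03 for partners and regulators, and -0.06 to 0.01 for release and apoptosome genes. The protective median ran from -0.02 (arrays centred on the median) to 0.05, the death-promoting one from -0.05 to 0.01, and their difference from -0.0490 to -0.0136. With arrays centred on the median, all measured probes had a median of -0.0524. The counts of all probes at least 2-fold apart, 40 higher and 34 lower, became 847 and 490 with no filter on dim probes, 494 and 260 with the weaker flag, 1 and 1 with a signal of at least 100 on both arrays, and 0 and 2 with normexp. With quantile normalization 53 were lower. The filters change which probes enter, and for the other settings the cause was not tested. The signal floor of 100 left Bik without a value.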
